A study of Mus musculus with 20 samples.

Results

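The 54 genes described here encode the Wnt ligands, their receptors, the secreted proteins that bind or oppose them, and a few genes of the feedback on this pathway. They were taken by gene symbol from the 45777 genes of a table of mouse uterine RNA: all symbols of the Wnt, Fzd, Sfrp, Dkk and Rspo families, Lgr4 to Lgr6, and Lrp5, Lrp6, Wif1, Axin2, Lef1, Tcf7, Znrf3, Rnf43, Kremen1 and Porcn. The rule used no measured value. RNA-seq was carried out on the uteri of 20 wild-type B6D2F1 females, aged 8 to 12 weeks and mated with males, with 5 mice and 5 libraries in each of 4 groups. All mice were killed at 18:00 on day 3.5, where day 0.5 is the morning of the vaginal plug, and 1 uterine horn of each was used for RNA. The control group received no treatment. The implantation failure (IF) group received 3 mg/kg of RU486, an antagonist of the progesterone and glucocorticoid receptors, under the skin on the morning of day 3.5. The PBMC and PBMC-hCG groups received the same RU486 and also, on day 1.5, 50000 peripheral blood mononuclear cells (PBMC) into each uterine horn. These cells came from non-pregnant mice and had been cultured for 24 hours, with 5 IU/mL of human chorionic gonadotropin (hCG) in the PBMC-hCG group and without it in the PBMC group. No group with an injection of medium alone was among the libraries, so the cells and the injection cannot be told apart.

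Wnt proteins are secreted glycoproteins that need a lipid group, attached by Porcn, to leave the cell and bind Frizzled (Fzd) receptors. With the co-receptors Lrp5 and Lrp6, a bound Frizzled stabilizes beta-catenin, which acts with the transcription factors Lef1 and Tcf7, and Axin2 is a feedback inhibitor that beta-catenin itself switches on. Some ligands, such as Wnt5a, also act without beta-catenin through receptors such as Ror2. In the mouse uterus, Wnt7a is a ligand of the luminal epithelium, and Wnt4 and Wnt5a of the stroma take part in decidualization and in forming the implantation chamber.

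Promoter sequence from RefSeq (GRCm38.p6, 250 bases before to 50 after a start site) was found for 34 of the 54 genes, with 42 start sites. The TCF/LEF core motif CTTTGA, searched on both strands, was in 5 of these 42 promoters (11.9%), against 16% of all 32851 promoters. The motif GGTCA, which is a repeat unit of the estrogen response element, was in 42.9% of member promoters and 40.5% of all promoters. The full estrogen response element was in none of the member promoters and in 0.07% of all. The hormone response motif TGTTCT was in 19% of both, and its longer core was in 4.76% of member promoters and 6.85% of all. The longer TCF/LEF motif CTTTGAT was in 4.76% against 3.73%. A match describes the letters only. The 4 expressed members with CTTTGA come first, since they are pathway genes whose own promoters hold the letters that its transcription factors bind, and 2 promoters with GGTCA follow. All are read 5′ to 3′ on the strand of the gene, with the motif or its reverse complement in capitals. They lie upstream of a RefSeq start site, at chr6:119449425-119449484 (-) for Wnt5b, chr7:98835035-98835094 (+) for Wnt11, chr5:4758407-4758466 (-) for Fzd1, chr3:131156147-131156206 (+) for Lef1, chr11:59306794-59306853 (+) for Wnt9a and chr7:89404214-89404273 (+) for Fzd4.
Wnt5b: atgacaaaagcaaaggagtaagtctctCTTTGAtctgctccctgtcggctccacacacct
Wnt11: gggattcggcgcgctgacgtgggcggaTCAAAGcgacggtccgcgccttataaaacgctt
Fzd1: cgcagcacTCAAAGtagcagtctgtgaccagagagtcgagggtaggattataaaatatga
Lef1: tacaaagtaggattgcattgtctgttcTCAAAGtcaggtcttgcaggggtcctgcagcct
Wnt9a: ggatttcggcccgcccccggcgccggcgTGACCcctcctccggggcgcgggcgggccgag
Fzd4: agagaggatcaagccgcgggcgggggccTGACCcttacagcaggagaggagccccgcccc

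Counted from the start site, with bases before it negative, the motif starts at -71 in Wnt5b, -50 in Wnt11, -242 in Fzd1 and -120 in Lef1. In Wnt5b and Wnt11 the longer motif covers the same bases. In Lef1 a TGTTCT match at -125 overlaps it. The Lef1 and Wnt5b start sites, and those of Wnt11 and Wnt9a by a shorter distance, lie inside the annotated gene. Other start sites of these genes thus lie further upstream. The Wnt9a and Fzd4 matches start at -108 and -124. Outside the bases shown, the same Lef1 promoter has another CTTTGA match at -180, and the Fzd4 promoter another GGTCA match at -79.

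The values are TPM, transcript abundances scaled for gene length and to the same total in each library, so levels of different genes can be set side by side but read depth is unknown. Tests were run on the 18706 genes with a value above 0 in each of the 20 libraries, and these held 40 of the 54 members. Within groups, log2 values of 2 libraries correlated at 0.961 to 0.992. Control mouse 2 stood apart. The summed TPM of 8 gland markers was 23990 in it and 1354 to 7792 in the other control mice, the sum of 15 epithelial markers was 2982 against 1252 to 1661, and the sum of 12 stromal markers was 6619 against 11010 to 11730. The comparisons with control mice were therefore fitted again without control mouse 2. Control mouse 5 was the next highest in gland markers, at 7792 against 1354 to 1660 in control mice 1, 3 and 4. Its sum of myometrial markers was 11590, against 6284 to 9210 in the other control mice. In IF mouse 3 the gland sum was 12280, against 2695 to 6283 in the other IF mice. Its epithelial sum was 2231 against 1668 to 1695, and its stromal sum 11030 against 11320 to 13170. In PBMC-hCG mouse 4 the gland sum was 10260, against 3877 to 4189 in the rest of its group, while its epithelial sum lay within their range. Its stromal sum was 11670 against 12250 to 13430. These mice were also left out in turn. Fewer cells of a type and less RNA per cell cannot be told apart in such bulk tissue. Nothing in the labels says that the mice of a group came from separate litters or days, and the p-values measure the spread between these mice.

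More Wnt ligand RNA was present after RU486. The summed TPM of the 19 ligand genes was 145.5 ± 22.9 (SD, n = 5) in control mice and 237 ± 12.2 in IF mice. It was 236.2 ± 18.1 in PBMC mice and 226.5 ± 11.8 in PBMC-hCG mice. Without control mouse 2, at 115.6, the control sum was 153 ± 18.0 (n = 4). The highest control sum, 178.3, was below the lowest of the other 15 mice, 211.3. Wnt5a was the main ligand in all groups, with 39.9% of the ligand sum in control mice, 41.1% in IF, 38.4% in PBMC and 43.5% in PBMC-hCG mice. Wnt4 made up 3.31% ± 0.449 (SD, n = 5) of the sum in control mice, 10.7% ± 4.82 in IF, 10.6% ± 6.02 in PBMC and 4.54% ± 3.33 in PBMC-hCG mice. PBMC-hCG mice thus had a Wnt4 share nearer to that of control mice, and a ligand sum nearer to that of IF mice.

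**Figure D1:**
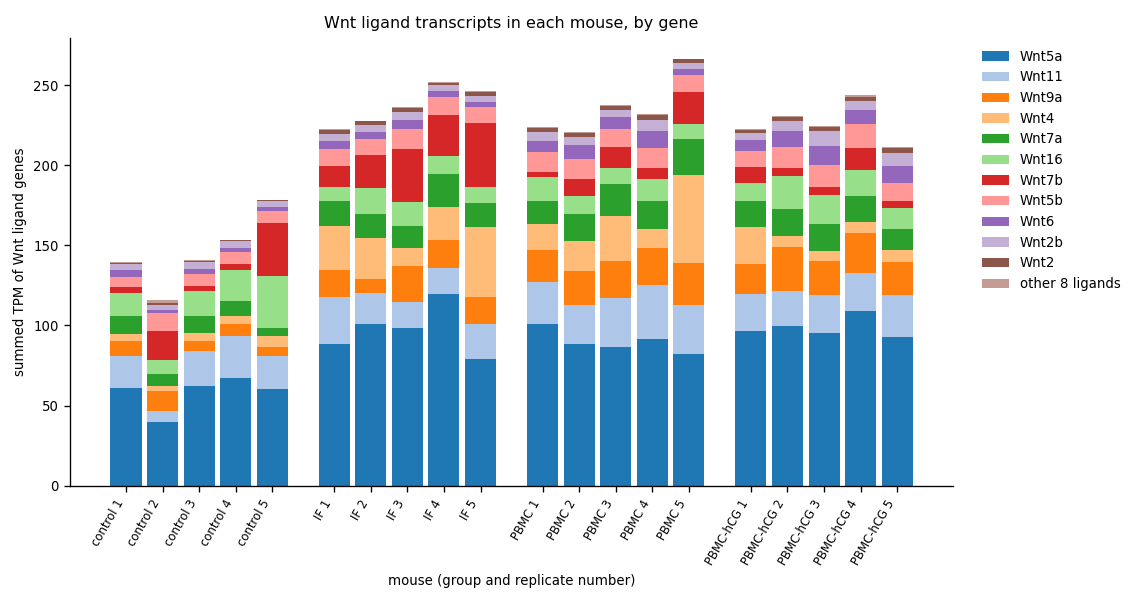
Summed TPM of the 19 Wnt ligand genes in each of the 20 mice (bars), divided by gene (colors). Wnt5a is the widest band in each bar, and the 5 control bars, at 115.6 to 178.3, are all lower than the other 15.

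Of the 40 members tested, 19 passed an adjusted p-value of 0.05 between IF and control mice. Of these, 16 were higher in IF mice, where 13.4% of all genes tested were called higher, and 3 were lower, where 8.53% of all genes were. Groups did not overlap for 11 members, against 12.8% of all genes. By the criterion of the study, a fold change of at least 2 with a raw p-value under 0.05, 8 members were called, against 4.03% of all genes. The median log2 fold change was 0.22 over the members and 0.02 over all genes tested. The split of all genes depends on scaling: 2509 were higher and 1595 lower as deposited, and 2161 and 2093 after quantile normalization, where 14 members were higher and 3 lower. By role, 6 of 11 ligands, 4 of 9 Frizzled receptors, both co-receptors, Kremen1, 2 of 3 feedback and transcription genes and 1 of 6 antagonists were higher. Another 2 antagonists and 1 of 3 R-spondin receptors were lower. Without control mouse 2 the count was again 19, with 15 higher and 4 lower: Fzd4 and Lrp5 were lost, and Wnt7b and, as lower, Wnt16 were gained.

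Between PBMC-hCG and IF mice 10 members were called. There 5 were higher, against 7.61% of all genes, and 5 were lower, against 5.99%. Groups did not overlap for 3 members, Fzd1, Fzd5 and Wnt6, against 7.24% of all genes, and 4 members passed the fold criterion, against 2.31%. The median log2 fold change was 0.17 over the members and 0.05 over all genes. This comparison lay at the edge of the adjustment for many tests. Without IF mouse 2, 4 or 5, or PBMC-hCG mouse 2, 3, 4 or 5, none of the members was called and between 0 and 34 of all genes were, against 2544 with all mice. Without IF mouse 3, 16 members were called, and without PBMC-hCG mouse 1, 13 were. Without IF mouse 1, Wnt2b and Wnt4 were also lost, and without IF mouse 3, Wnt7b was. Each of the 10 calls was thus lost in 7 or 8 of the 10 fits without 1 mouse (adjusted p up to 0.144), and no fold change of the 10 changed sign in them. With library scaling by size factors, 1181 of all genes were higher and 1467 lower, against 1423 and 1121, while 5 members were higher and 5 lower in both.

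Between PBMC and IF mice no member passed adjustment by limma, and none of all genes did. At an unadjusted p under 0.05, 7 members stood, against 6.79% of all genes. They were Axin2, Fzd5, Lrp5, Wnt11, Wnt6, Wnt7b and Wnt9a. Groups did not overlap for Axin2 and Lrp5, against 1.01% of all genes, and Wnt7b alone passed the fold criterion, against 0.438%. Between PBMC-hCG and PBMC mice no member passed adjustment, and 2 of all genes did. At an unadjusted p under 0.05, 6 members stood (Dkk3, Fzd1, Fzd6, Lrp6, Sfrp2 and Wnt4), against 16.2% of all genes. Wnt4 alone passed the fold criterion, against 0.893%. Groups overlapped for all 40 members tested, while they did not for 3.46% of all genes. With weights estimated for each library, Axin2 passed adjustment in the former comparison, and Fzd1, Sfrp2 and Wnt4 in the latter.

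Against control mice, 17 members were higher in PBMC mice, against 12.8% of all genes, and 1, Sfrp2, was lower, against 6.7%. In PBMC-hCG mice 20 members were higher than in control mice, against 20.2% of all genes, and 1, Fzd1, was lower, against 11.6%. These comparisons share their control mice with the one between IF and control mice. After scaling by size factors all genes were split into 1856 higher and 1676 lower for PBMC and 2797 and 2966 for PBMC-hCG mice, against 2400 and 1253 and 3772 and 2169 as deposited. The members were then split into 16 and 1, and 17 and 1. Without control mouse 2 no member call of these 2 comparisons was lost. There Kremen1 (higher), Sfrp1 and Wnt16 (both lower) were gained for PBMC mice, which gave 21 calls, and Sfrp1 (lower) for PBMC-hCG mice, which gave 22.

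Wnt4, a ligand of the stroma, was high in IF and PBMC mice. For Wnt4, the 5 control mice had 4.53, 3.12, 4.79, 5.004 and 7.05 TPM and the 5 IF mice 27.1, 25.2, 11.4, 19.99 and 43.6 TPM. PBMC mice had 16.3, 18.6, 28.01, 11.7 and 54.4 TPM of Wnt4, and PBMC-hCG mice 23.3, 6.697, 6.18, 6.995 and 7.795 TPM. Each IF mouse was higher than each control mouse, and the PBMC mice spanned the widest range. In the PBMC-hCG group 4 mice were just above or within the control range and mouse 1 lay within the IF range. In IF mice Wnt4 was 4.83-fold higher than in control mice (log2 fold change 2.27, SE 0.41, adjusted p = 0.000642). In PBMC-hCG mice it was 2.62-fold lower than in IF mice (log2 fold change -1.39, SE 0.41, adjusted p = 0.0392). This call was lost in 8 of the 10 fits without 1 mouse (without IF mouse 1, 2, 4 or 5 or PBMC-hCG mouse 2, 3, 4 or 5, adjusted p up to 0.130). It was kept without PBMC-hCG mouse 1, with a log2 fold change of -1.74 and an adjusted p of 0.0102, and without IF mouse 3. PBMC and IF mice differed by a log2 fold change of -0.07 (95% interval -0.95 to 0.81, adjusted p = 0.983), and PBMC-hCG and PBMC mice by -1.33 (adjusted p = 0.268). Against control mice, Wnt4 was called in PBMC mice (log2 fold change 2.21, SE 0.41, adjusted p = 0.000924) and not in PBMC-hCG mice (log2 fold change 0.88, SE 0.41, adjusted p = 0.114).

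Wnt7b, which like Wnt7a is an epithelial ligand, varied widely among control mice. Control mice had 3.47, 18.2, 3.49, 3.76 and 33.4 TPM of Wnt7b, and IF mice had 13.2, 20.4, 33.2, 25.5 and 40.1 TPM. Wnt7b stood at 3.01, 10.2, 12.8, 7.04 and 19.96 TPM in PBMC mice and at 9.96, 4.58, 5.04, 13.6 and 4.22 TPM in PBMC-hCG mice. Control mice 2 and 5 were within the IF range, and the other 3 were at 3.47 to 3.76 TPM. All groups overlapped. Wnt7b was lower in PBMC-hCG than in IF mice (log2 fold change -1.87, SE 0.61, adjusted p = 0.0483). This call was lost in 8 of the 10 fits without 1 mouse (adjusted p up to 0.1435) and under 2 of 10 other settings. Wnt7b differed from control by a log2 fold change of 1.65 in IF mice, which missed the threshold (SE 0.61, adjusted p = 0.0588). It passed without control mouse 2 (1.96, adjusted p = 0.0268), without control mouse 5 (2.18, adjusted p = 0.00939), without IF mouse 1 (1.88, adjusted p = 0.0467) and with library weights (2.24, adjusted p = 0.00166). PBMC and IF mice differed by -1.46 (SE 0.61, adjusted p = 0.701).

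Wnt5a, the most abundant ligand, was higher in all 3 groups with RU486. Wnt5a was at 60.8, 39.6, 61.9, 67.1 and 60.6 TPM in control mice and at 88.7, 101, 98.5, 119 and 79.02 TPM in IF mice. In PBMC mice Wnt5a was at 101, 88.6, 86.6, 91.4 and 82.4 TPM, and in PBMC-hCG mice at 96.3, 99.5, 95.1, 109 and 92.8 TPM. No mouse of these groups was as low as the highest control mouse. The rise was 1.69-fold in IF mice (log2 fold change 0.75, SE 0.12, adjusted p = 0.000171), and it was 1.57-fold in PBMC and 1.72-fold in PBMC-hCG mice (adjusted p = 0.000744 and 0.000102). Control mouse 2 had the lowest value, and without it the IF rise was 0.62 on the log2 scale (adjusted p = 6.09e-05). IF, PBMC and PBMC-hCG mice overlapped, with log2 fold changes of -0.10 and 0.03 against IF (95% intervals -0.36 to 0.15 and -0.22 to 0.28).

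Wnt7a, Wnt9a and Wnt2 showed the same order of control below the other groups. For Wnt7a, the 5 control mice had 11.01, 7.59, 10.8, 9.33 and 5.33 TPM and the 5 IF mice 15.8, 15.6, 13.5, 20.9 and 15.1 TPM. PBMC mice had 14.8, 16.8, 19.8, 17.6 and 22.4 TPM of Wnt7a, and PBMC-hCG mice 16.1, 16.6, 16.7, 15.9 and 13.2 TPM. Control and IF mice did not overlap, and IF mice were higher (log2 fold change 0.90, SE 0.17, adjusted p = 0.000782). Control mice had 9.299, 12.1, 6.37, 7.34 and 5.58 TPM of Wnt9a, and IF mice had 16.9, 8.85, 22.4, 18.05 and 16.8 TPM. Wnt9a stood at 19.8, 21.1, 23.2, 23.5 and 26.3 TPM in PBMC mice and at 18.3, 27.7, 21.4, 24.7 and 20.3 TPM in PBMC-hCG mice. IF mouse 2 fell within the control range, and each PBMC and PBMC-hCG mouse was above it. Wnt9a was 2.02-fold higher in IF (log2 fold change 1.01, SE 0.21, adjusted p = 0.00221), 2.88-fold in PBMC and 2.82-fold in PBMC-hCG mice (adjusted p = 6.54e-05 and 5.63e-05). Wnt2 was at 0.784, 1.34, 0.683, 0.486 and 0.514 TPM in control mice and at 2.48, 2.33, 2.59, 1.28 and 2.09 TPM in IF mice. In PBMC mice Wnt2 was at 2.58, 2.15, 2.24, 2.81 and 2.17 TPM, and in PBMC-hCG mice at 1.91, 2.39, 2.85, 2.87 and 2.98 TPM. Its level was under 3 TPM in all mice, and control mouse 2 and IF mouse 4 overlapped. The Wnt2 rise was 2.70-fold in IF mice (log2 fold change 1.43, SE 0.22, adjusted p = 0.000152). For all 3 ligands, both groups with cells were also called higher than control (log2 fold change 0.87 to 1.71, adjusted p at most 0.000813).

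Wnt6, Wnt2b and Wnt5b were highest on average in PBMC-hCG mice. For Wnt6, the 5 control mice had 4.24, 2.19, 3.03, 2.09 and 2.24 TPM and the 5 IF mice 5.04, 4.58, 6.07, 3.68 and 3.05 TPM. PBMC mice had 7.25, 8.63, 7.83, 10.4 and 3.697 TPM of Wnt6, and PBMC-hCG mice 6.86, 9.76, 11.96, 8.86 and 10.1 TPM. All PBMC-hCG mice were above all IF mice, and PBMC mouse 5 alone of its group was within the IF range. Wnt6 was 2.12-fold higher in PBMC-hCG than in IF mice (log2 fold change 1.08, SE 0.25, adjusted p = 0.0287), a call lost in 7 of the 10 fits without 1 mouse (adjusted p up to 0.0992). Its rise in IF against control mice missed the threshold (log2 fold change 0.70, SE 0.25, adjusted p = 0.0573). That rise passed with the replicate number of the mice as a term in the fit (replicate block), with quantile normalization or library weights, and without control mouse 1 or IF mouse 5. Control mice had 3.93, 3.15, 3.92, 4.77 and 3.77 TPM of Wnt2b, and IF mice had 4.09, 4.54, 4.75, 3.43 and 3.70 TPM. Wnt2b stood at 5.46, 4.94, 4.295, 7.03 and 4.12 TPM in PBMC mice and at 4.18, 6.44, 9.03, 5.09 and 8.25 TPM in PBMC-hCG mice. PBMC-hCG mouse 1 was within the IF range and the other 4 were above it, and Wnt2b was called higher (log2 fold change 0.63, SE 0.19, adjusted p = 0.0415). That call was lost in 8 of the 10 fits without 1 mouse (adjusted p up to 0.123) and under 3 of 10 other settings. Wnt2b was also called in PBMC-hCG against control mice (adjusted p = 0.00993). Wnt5b was at 6.35, 11.2, 7.65, 7.498 and 7.37 TPM in control mice and at 10.6, 9.95, 12.4, 11.8 and 9.99 TPM in IF mice. In PBMC mice Wnt5b was at 12.4, 12.9, 11.3, 12.7 and 10.4 TPM, and in PBMC-hCG mice at 10.1, 13.3, 13.4, 14.98 and 11.6 TPM. Control mouse 2 was within the IF range and above the other 4 control mice. Wnt5b rose in IF mice (log2 fold change 0.47, SE 0.13, adjusted p = 0.0161), and without control mouse 2 by 0.59 on the log2 scale. It was not called between any of the groups with RU486.

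The other 2 tested ligands passed adjustment in no comparison with all mice. Wnt11, a ligand that acts mostly without beta-catenin, averaged 23.1 TPM over the 20 mice and ranged from 7.18 TPM in control mouse 2 to 33.6 TPM in PBMC mouse 4. Its log2 fold change of 0.70 between PBMC and control mice (adjusted p = 0.0535) passed without control mouse 3 or 4, with the replicate block, and among genes with a mean of at least 1 TPM (adjusted p = 0.0277 to 0.0495). Wnt16 ranged from 8.58 to 32.2 TPM, both in control mice. Without control mouse 2 it was called lower than control in IF mice (log2 fold change -0.70, adjusted p = 0.0360) and in PBMC mice (-0.71, adjusted p = 0.0356), against -0.46 and -0.47 with all mice (adjusted p = 0.233 and 0.232). Another 8 ligands were above 0 TPM in fewer than 20 libraries and were not tested. Wnt1 and Wnt8a were listed at 0 in all libraries. Wnt3a was above 0 in 1 library, Wnt3 in 2, Wnt9b in 12, Wnt10a in 13, Wnt8b in 18 and Wnt10b in 19, and none of them reached 1 TPM. Wnt3 and Wnt9b overlap in the annotation. Among tested genes, Wnt2b overlaps St7l, Wnt5b overlaps Fbxl14, Fzd4 overlaps Tmem135 and Tcf7 overlaps Skp1. The kit marks the strand of the RNA, but whether the assembly used it was not given in the sources used here, so part of these values may belong to the partner.

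**Figure D2:**
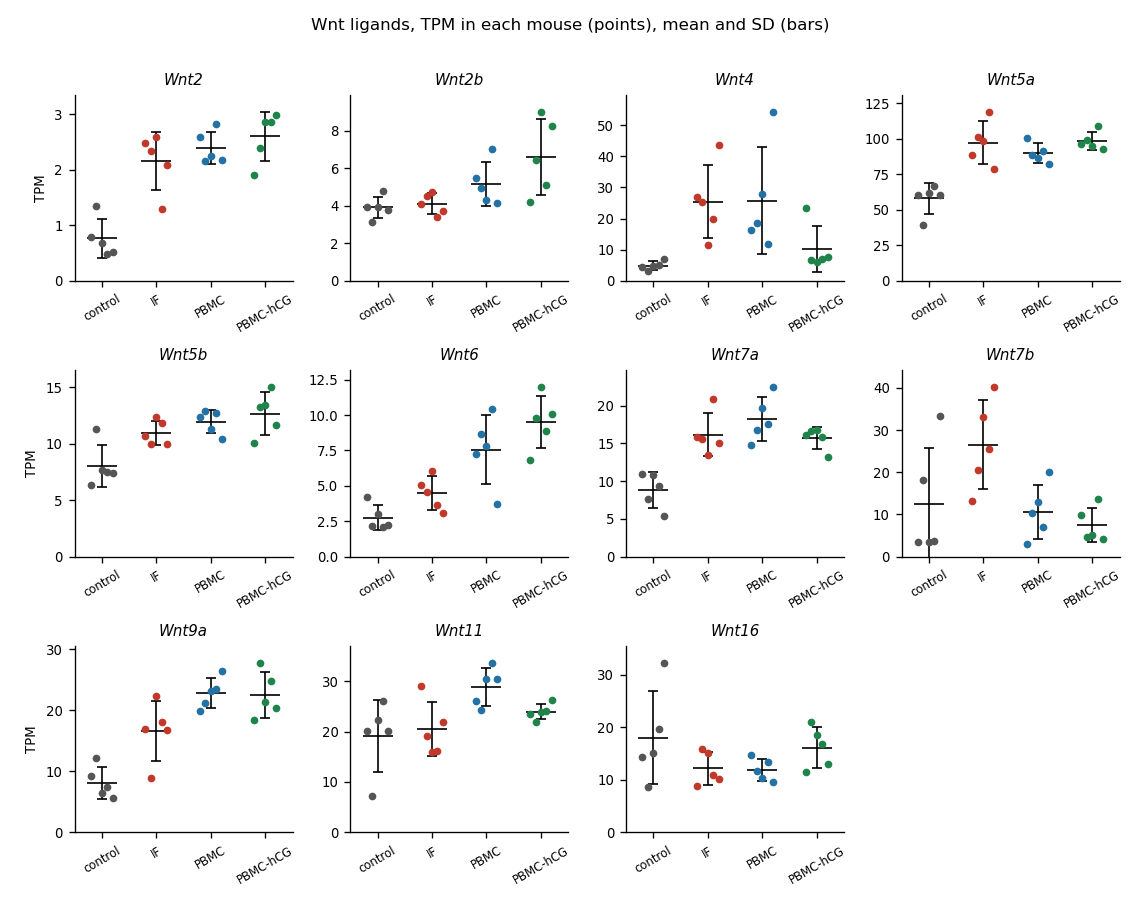
TPM of the 11 tested Wnt ligands in each mouse (points, left to right in order of replicate number), with the group mean and SD (bars, cut at 0 where the SD passes it) on linear axes that start at 0. Wnt4 is high in IF and PBMC mice and, apart from mouse 1 at 23.3 TPM, at 6.18 to 7.80 TPM in PBMC-hCG mice, whereas the means of Wnt5a, Wnt7a and Wnt9a are above control in all 3 groups with RU486.

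Porcn, the enzyme that attaches the lipid to the ligands, had its highest mean in PBMC-hCG mice. For Porcn, the 5 control mice had 15.2, 33.4, 20.9, 17.5 and 16.1 TPM and the 5 IF mice 23.7, 21.6, 32.1, 18.9 and 16.9 TPM. PBMC mice had 26.2, 24.5, 22.7, 25.99 and 16.7 TPM of Porcn, and PBMC-hCG mice 22.2, 32.9, 33.4, 33.9 and 27.8 TPM. Control mouse 2 was within the PBMC-hCG range, and the groups overlapped. Porcn was called in PBMC-hCG against control mice alone (log2 fold change 0.59, SE 0.20, adjusted p = 0.0338), and not with 4 of the 10 other settings, such as size factors, or without any of 6 mice (adjusted p up to 0.0923).

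Among the Frizzled receptors, Fzd1, Fzd2 and Fzd6 held most of the RNA, and the summed level of the 10 genes was 213.8 ± 13.8 (SD, n = 5) TPM in control, 243.4 ± 19 in IF, 235.2 ± 16.7 in PBMC and 221.1 ± 11.2 in PBMC-hCG mice. Fzd1 went from 34.4% ± 6.26 of this sum in control mice to 19.01% ± 2.54 in PBMC-hCG mice. Control mice had 71.1, 64.5, 59.8, 69.3 and 106 TPM of Fzd1, and IF mice had 68.9, 85.4, 57.8, 57.3 and 116 TPM. Fzd1 stood at 51.7, 51.8, 71.8, 51.4 and 95.2 TPM in PBMC mice and at 55.4, 40.5, 38.7, 36.9 and 39.4 TPM in PBMC-hCG mice. PBMC-hCG mouse 1 was the highest of its group, and still all 5 were below all IF and all control mice. Fzd1 was 1.78-fold lower in PBMC-hCG than in IF mice (log2 fold change -0.83, SE 0.21, adjusted p = 0.0287) and 1.74-fold lower than in control mice (log2 fold change -0.80, SE 0.21, adjusted p = 0.00701). The former call was lost in 7 of the 10 fits without 1 mouse (adjusted p up to 0.0999). Fzd1 did not differ detectably between IF and control mice (log2 fold change 0.03, 95% interval -0.41 to 0.47).

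Fzd6 moved the other way. Fzd6 was at 30.2, 33.04, 35.99, 37.9 and 27.1 TPM in control mice and at 43.3, 37.2, 48.4, 37.3 and 35.8 TPM in IF mice. In PBMC mice Fzd6 was at 42.97, 39.6, 44.5, 44.1 and 39.5 TPM, and in PBMC-hCG mice at 48.4, 51.4, 48.5, 55.3 and 43.98 TPM. Group means went from 32.8 TPM in control to 49.5 TPM in PBMC-hCG mice, and neighbouring groups overlapped. Fzd6 was called in IF against control (log2 fold change 0.30, SE 0.09, adjusted p = 0.0289) and in PBMC-hCG against IF mice (log2 fold change 0.30, SE 0.09, adjusted p = 0.0445). The IF rise was lost without control mouse 1 or 5 or IF mouse 1 or 3 (adjusted p up to 0.0803) and under 3 of 10 other settings. The call between PBMC-hCG and IF mice was lost in 7 of the 10 fits without 1 mouse (adjusted p up to 0.140) and under 4 of 10 other settings. Against control mice Fzd6 was 1.51-fold higher in PBMC-hCG mice (log2 fold change 0.60, SE 0.09, adjusted p = 0.000133), with no overlap.

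Fzd10, Fzd7 and Fzd4 were higher in IF than in control mice and were not called between the groups with RU486. For Fzd10, the 5 control mice had 2.497, 7.51, 2.68, 2.33 and 4.05 TPM and the 5 IF mice 7.56, 8.34, 7.59, 7.75 and 7.93 TPM. PBMC mice had 7.66, 9.15, 8.62, 7.81 and 7.43 TPM of Fzd10, and PBMC-hCG mice 8.97, 9.24, 9.04, 10.1 and 6.78 TPM. Control mouse 2 was close to the IF mice and the other 4 were far below. Its fold change was 2.24 (log2 fold change 1.17, SE 0.22, adjusted p = 0.000908), and without control mouse 2 the log2 fold change was 1.44. Control mice had 21.2, 27.7, 24.8, 19.4 and 19.2 TPM of Fzd7, and IF mice had 33.4, 35.2, 36.01, 40.6 and 27.1 TPM. Fzd7 stood at 36.9, 35.6, 37.8, 34.5 and 29.8 TPM in PBMC mice and at 36.3, 32.1, 32.2, 36.1 and 35.3 TPM in PBMC-hCG mice. IF mouse 5 was just below control mouse 2, and the rise was 1.53-fold (log2 fold change 0.62, SE 0.11, adjusted p = 0.000443). Fzd4 was at 9.42, 8.35, 10.003, 10.3 and 9.24 TPM in control mice and at 11.7, 11.2, 12.003, 10.4 and 10.4 TPM in IF mice. In PBMC mice Fzd4 was at 11.6, 11.5, 12.1, 11.8 and 10.6 TPM, and in PBMC-hCG mice at 12.7, 12.5, 12.7, 10.5 and 13.5 TPM. The IF and control mice of Fzd4 did not overlap, by a small margin (log2 fold change 0.23, SE 0.08, adjusted p = 0.0399). The call was lost without control mouse 2 (adjusted p = 0.0799), without 5 other mice and under 3 of 10 other settings.

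Fzd2, the other abundant receptor, was called in no comparison and averaged 56.6 TPM, from 43.0 TPM in control mouse 2 to 66.2 TPM in IF mouse 4. Fzd3 lay between 2.49 and 3.77 TPM, Fzd5 between 4.53 and 10.7 TPM and Fzd8 between 4.24 and 7.18 TPM. Fzd5 did not overlap between PBMC-hCG and IF mice and missed the threshold (log2 fold change 0.46, adjusted p = 0.0529). It passed there among genes with a mean of at least 1 TPM, with the replicate block, with library weights and with only both groups fitted (adjusted p = 0.0102 to 0.0464), and between PBMC-hCG and control mice without control mouse 3 (adjusted p = 0.0220). Fzd9, the remaining receptor, was above 0 in 19 libraries at no more than 0.397 TPM.

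The co-receptors Lrp5 and Lrp6, which are needed for the beta-catenin branch, differed from each other. For Lrp6, the 5 control mice had 26.3, 22.9, 23.1, 24.6 and 24.7 TPM and the 5 IF mice 31.1, 34.1, 34.2, 31.1 and 29.02 TPM. PBMC mice had 33.8, 32.1, 31.5, 30.6 and 28.4 TPM of Lrp6, and PBMC-hCG mice 33.5, 36.5, 34.8, 32.6 and 33.2 TPM. All IF mice were above all control mice, and so were all PBMC and PBMC-hCG mice. Lrp6 was 1.31-fold higher in IF (log2 fold change 0.39, SE 0.06, adjusted p = 0.000134) and 1.40-fold higher in PBMC-hCG mice (adjusted p = 1.39e-05). Control mice had 34.4, 31.8, 33.01, 33.4 and 34.02 TPM of Lrp5, and IF mice had 35.2, 37.5, 42.5, 36.9 and 39.9 TPM. Lrp5 stood at 33.4, 32.2, 34.2, 32.9 and 32.7 TPM in PBMC mice and at 40.6, 32.5, 32.4, 36.8 and 30.2 TPM in PBMC-hCG mice. IF mice were above all control and all PBMC mice, which together spanned 31.8 to 34.4 TPM. The IF rise of Lrp5 was 1.15-fold (log2 fold change 0.20, SE 0.07, adjusted p = 0.0401), and it was lost under 6 of 10 other settings and without 8 of the 10 mice in turn (control mice 1 to 5 and IF mice 2, 3 and 5, adjusted p up to 0.102). PBMC and IF mice differed by -0.21 on the log2 scale and missed the threshold (adjusted p = 0.628).

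The R-spondins are secreted proteins that strengthen Wnt signaling through Lgr4, Lgr5 and Lgr6, which keep the ubiquitin ligases Rnf43 and Znrf3 from removing Frizzled receptors. The R-spondin sum was 67.2 ± 17.6 (SD, n = 5) TPM in control, 74.1 ± 21.0 in IF, 94.6 ± 20.7 in PBMC and 115.3 ± 18.4 in PBMC-hCG mice. Rspo3 was at 34.4, 59.3, 44.2, 36.3 and 32.6 TPM in control mice and at 50.3, 48.8, 66.9, 31.7 and 29.3 TPM in IF mice. In PBMC mice Rspo3 was at 72.2, 63.2, 49.9, 73.9 and 34.7 TPM, and in PBMC-hCG mice at 50.6, 87.5, 78.5, 86.2 and 74.9 TPM. PBMC-hCG mouse 1 was within the IF range, and the other 4 were above it. Rspo3 was 1.71-fold higher in PBMC-hCG than in IF mice (log2 fold change 0.77, SE 0.24, adjusted p = 0.0439) and 1.84-fold higher than in control mice (log2 fold change 0.88, SE 0.24, adjusted p = 0.01004). The former call was lost in 7 of the 10 fits without 1 mouse (adjusted p up to 0.144) and under 2 of 10 other settings. For Rspo1, the 5 control mice had 18.5, 37.4, 24.2, 20.8 and 27.04 TPM and the 5 IF mice 30.1, 22.5, 39.2, 26.3 and 24.2 TPM. PBMC mice had 41.6, 40.2, 31.6, 35.1 and 29.99 TPM of Rspo1, and PBMC-hCG mice 36.1, 39.8, 35.8, 48.6 and 37.5 TPM. Groups overlapped in all comparisons of Rspo1. It was called in PBMC against control mice (log2 fold change 0.51, SE 0.17, adjusted p = 0.0405). That call was lost without control mouse 1, 3, 4 or 5 or PBMC mouse 1, 2 or 4 (adjusted p up to 0.114) and under 5 of 10 other settings. Rspo1 was also called in PBMC-hCG against control mice (log2 fold change 0.66, SE 0.17, adjusted p = 0.00645). Between PBMC-hCG and IF mice Rspo1 missed the threshold (log2 fold change 0.49, adjusted p = 0.0571). It passed there with library weights, with only both groups fitted, and without IF mouse 3 or PBMC-hCG mouse 1 (adjusted p = 0.00148 to 0.04905). Rspo2 and Rspo4 were not tested, being above 0 in 16 and 17 libraries and at most at 0.327 TPM.

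Of the R-spondin receptors, Lgr6 was lower in PBMC-hCG mice. Control mice had 2.62, 1.62, 2.81, 3.18 and 4.07 TPM of Lgr6, and IF mice had 4.14, 6.99, 3.25, 12.3 and 8.34 TPM. Lgr6 stood at 4.77, 2.53, 2.93, 1.42 and 8.03 TPM in PBMC mice and at 5.48, 1.92, 0.965, 1.64 and 2.02 TPM in PBMC-hCG mice. PBMC-hCG mouse 1 was within the IF range, and the other 4 were below it. Lgr6 was 2.99-fold lower in PBMC-hCG than in IF mice (log2 fold change -1.58, SE 0.46, adjusted p = 0.0367), and without PBMC-hCG mouse 1 the log2 fold change was -1.93. The call was lost in 7 of the 10 fits without 1 mouse (adjusted p up to 0.115). Its IF level was 2.24 times that of control mice and missed the threshold (log2 fold change 1.16, SE 0.46, adjusted p = 0.0759), which it passed with library weights and without IF mouse 3. Lgr4 was at 16.01, 11.1, 16.7, 16.5 and 12.1 TPM in control mice and at 12.5, 10.8, 10.5, 9.896 and 7.36 TPM in IF mice. In PBMC mice Lgr4 was at 14.5, 12.7, 11.7, 12.7 and 7.87 TPM, and in PBMC-hCG mice at 11.8, 15.8, 15.6, 13.5 and 14.5 TPM. IF mice were lower than control mice on average, with overlap (log2 fold change -0.50, SE 0.16, adjusted p = 0.0353). That call was lost without control mouse 1, 3 or 4 or IF mouse 4 or 5 (adjusted p up to 0.105) and under 2 of 10 other settings. In PBMC-hCG mice Lgr4 was 0.49 above IF on the log2 scale (adjusted p = 0.0523), a difference that passed under 6 other settings and without IF mouse 1 or 3 or PBMC-hCG mouse 1. Lgr5 was called in no comparison and ranged from 1.47 to 8.48 TPM, both in control mice. Rnf43 at 3.29 to 7.92 TPM and Znrf3 at 5.34 to 8.39 TPM were also called in none with all mice, and both were called higher in PBMC-hCG than in IF mice with library weights or without IF mouse 3 (log2 fold change 0.33 to 0.51).

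**Figure D3:**
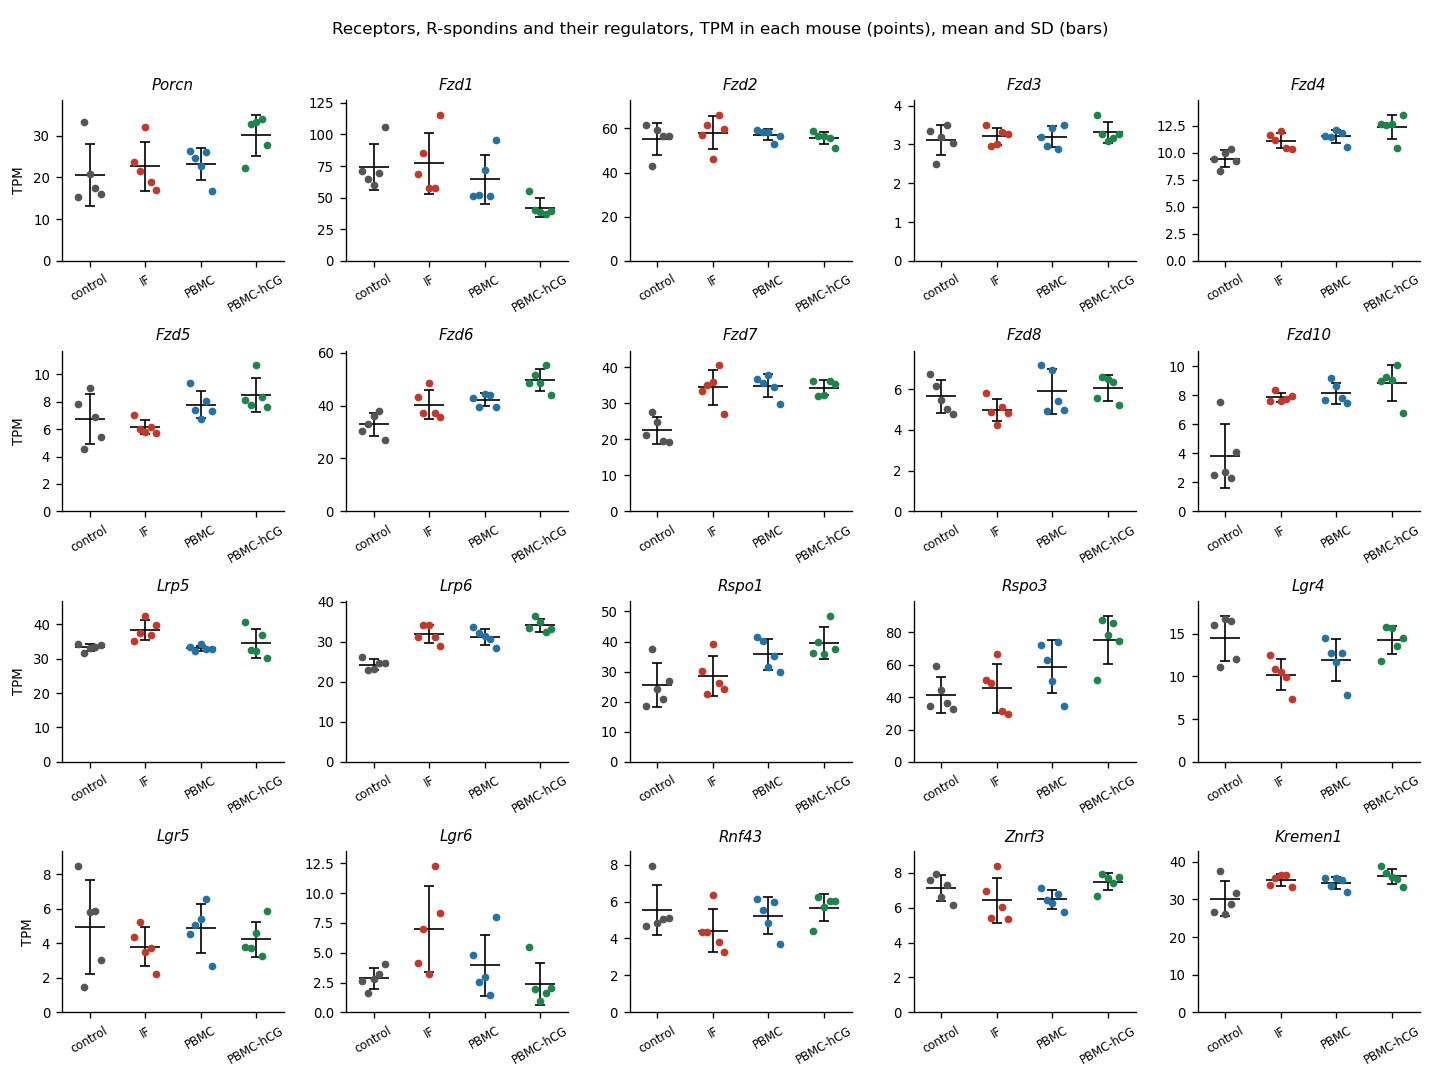
TPM of Porcn, the 9 tested Frizzled receptors, the co-receptors, R-spondins, Lgr receptors, Rnf43, Znrf3 and Kremen1 in each mouse (points), with the group mean and SD (bars) on linear axes from 0. Fzd1 is lowest in PBMC-hCG mice (36.9 to 55.4 TPM), the means of Fzd6 and Rspo3 are highest there, and those of Fzd10 and Lrp6 are lowest in control mice.

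The secreted antagonists bind the ligands (Sfrp and Wif1) or the co-receptors (Dkk1, Dkk2 and Dkk4). Their sum was 560.3 ± 76.1 (SD, n = 5) TPM in control, 505.7 ± 57.5 in IF, 541.1 ± 72.8 in PBMC and 573.2 ± 56.0 in PBMC-hCG mice, with overlap between all groups. Sfrp4 was the most abundant member of all, at 269.3 TPM on average, and was called in no comparison, with 109.2 TPM in IF mouse 3 as its lowest and 369.5 TPM in control mouse 2 as its highest value. For Sfrp2, the 5 control mice had 104, 136, 111, 118 and 122 TPM and the 5 IF mice 71.1, 59.5, 88.9, 55.97 and 79.8 TPM. PBMC mice had 77.8, 93.4, 77.8, 96.98 and 60.1 TPM of Sfrp2, and PBMC-hCG mice 85.99, 109.7, 116, 139 and 110.05 TPM. All IF and all PBMC mice were below all control mice, and in the PBMC-hCG group mice 2 to 5 were within or above the control range. Sfrp2 was 1.68-fold lower in IF than in control mice (log2 fold change -0.75, SE 0.14, adjusted p = 0.00104) and 1.58-fold higher in PBMC-hCG than in IF mice (log2 fold change 0.66, SE 0.14, adjusted p = 0.0258). The latter call was lost in 7 of the 10 fits without 1 mouse (adjusted p up to 0.09225). Sfrp2 was 1.47-fold lower in PBMC than in control mice (adjusted p = 0.0106). PBMC-hCG and control mice differed by -0.08 on the log2 scale (95% interval -0.39 to 0.22), and PBMC-hCG and PBMC mice by 0.47 (adjusted p = 0.268).

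Sfrp1 was lower in IF mice too. Control mice had 23.4, 14.1, 20.96, 19.5 and 24.9 TPM of Sfrp1, and IF mice had 15.6, 14.9, 11.6, 13.5 and 17.5 TPM. Sfrp1 stood at 15.7, 16.1, 18.4, 17.3 and 12.9 TPM in PBMC mice and at 15.5, 16.2, 17.8, 19.5 and 17.7 TPM in PBMC-hCG mice. Control mouse 2 was within the IF range, and the other 4 were above it. The fall was 1.39-fold (log2 fold change -0.48, SE 0.14, adjusted p = 0.0187), and 0.61 on the log2 scale without control mouse 2 (adjusted p = 0.00101). It was lost without control mouse 1 or 5 or IF mouse 3 (adjusted p up to 0.0528).

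Dkk2 had the lowest adjusted p-value of all members, and was higher than control in the 3 groups with RU486. Dkk2 was at 17.5, 12.8, 14.8, 17.2 and 12.3 TPM in control mice and at 31.3, 30.7, 38.1, 32.1 and 35.5 TPM in IF mice. In PBMC mice Dkk2 was at 30.6, 35.1, 35.2, 34.995 and 31.03 TPM, and in PBMC-hCG mice at 26.7, 35.8, 38.5, 35.5 and 32.5 TPM. No mouse with RU486 was as low as any control mouse. The rise was 2.25-fold in IF mice (log2 fold change 1.17, SE 0.11, adjusted p = 6.24e-07), 2.25-fold in PBMC and 2.26-fold in PBMC-hCG mice (adjusted p = 7.09e-07 and 6.31e-07). The log2 fold change of PBMC-hCG against IF mice was 0.01 (95% interval -0.23 to 0.24). Dkk3, a relative that is not known for binding the co-receptors, was more abundant. For Dkk3, the 5 control mice had 118, 144, 105, 117 and 109.9 TPM and the 5 IF mice 139.6, 122, 165, 107 and 117 TPM. PBMC mice had 131, 127, 139, 143 and 102 TPM of Dkk3, and PBMC-hCG mice 132, 150.1, 146, 191 and 155 TPM. All groups overlapped, and Dkk3 was called in PBMC-hCG against control mice alone (log2 fold change 0.38, SE 0.12, adjusted p = 0.0217), not without control mouse 3 or 5 or PBMC-hCG mouse 4 (adjusted p up to 0.0696).

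Kremen1, the receptor with which Dickkopf proteins remove Lrp6, differed by a small fold. Control mice had 26.8, 37.6, 26.2, 28.7 and 31.7 TPM of Kremen1, and IF mice had 33.97, 35.7, 36.4, 36.6 and 33.3 TPM. Kremen1 stood at 35.7, 33.5, 35.7, 35.2 and 31.9 TPM in PBMC mice and at 38.9, 37.2, 36.01, 35.5 and 33.4 TPM in PBMC-hCG mice. Control mouse 2 was above all IF mice, and the other 4 were below them. The IF rise was 1.17-fold (log2 fold change 0.23, SE 0.08, adjusted p = 0.0409). Without control mouse 2 the log2 fold change was 0.31. The call was lost under 6 of 10 other settings and without any of 7 other mice (control mice 1, 3 and 4 and IF mice 1 to 4, adjusted p up to 0.119). In PBMC-hCG mice it was 1.21-fold above control (adjusted p = 0.0132). Of the antagonists at low levels, Sfrp5 ranged from 0.156 to 2.72 TPM and was called in no comparison. Wif1 was above 0 in 11 libraries and Dkk1 in 3, with at most 0.381 TPM, and Dkk4 was listed at 0 in all.

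Axin2, the feedback inhibitor, was highest on average in IF mice. Axin2 was at 21.6, 30.3, 17.9, 19.97 and 19.4 TPM in control mice and at 56.5, 53.03, 65.7, 66.04 and 71.6 TPM in IF mice. In PBMC mice Axin2 was at 33.02, 29.4, 40.7, 39.2 and 49.2 TPM, and in PBMC-hCG mice at 53.8, 40.7, 37.6, 45.6 and 37.7 TPM. All IF mice were above all control and all PBMC mice, PBMC-hCG mouse 1 was within the IF range, and PBMC mouse 2 was just below control mouse 2. Axin2 was 2.89-fold higher in IF than in control mice (log2 fold change 1.53, SE 0.15, adjusted p = 9.91e-07). It was 1.46-fold lower in PBMC-hCG than in IF mice (log2 fold change -0.54, SE 0.15, adjusted p = 0.0326). That call was lost in 7 of the 10 fits without 1 mouse (adjusted p up to 0.109) and under 1 of 10 other settings. Between PBMC and IF mice Axin2 had a raw p of 0.000112 and missed adjustment (log2 fold change -0.72, SE 0.15, adjusted p = 0.274). Both groups with cells were still above control, by 1.75-fold in PBMC mice (adjusted p = 0.000724) and 1.99-fold in PBMC-hCG mice (adjusted p = 8.66e-05).

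Lef1 and Tcf7, which bind beta-catenin on DNA and are themselves switched on by it, had no difference between IF and PBMC-hCG mice that passed adjustment. For Tcf7, the 5 control mice had 15.9, 10.1, 15.8, 17.3 and 14.2 TPM and the 5 IF mice 27.7, 25.5, 25.1, 21.3 and 23.8 TPM. PBMC mice had 23.4, 21.9, 24.98, 20.6 and 24.3 TPM of Tcf7, and PBMC-hCG mice 27.9, 21.01, 21.96, 23.9 and 20.9 TPM. Each control mouse was below each mouse of the other groups. Tcf7 was 1.70-fold higher in IF (log2 fold change 0.76, SE 0.12, adjusted p = 0.000155), 1.59-fold in PBMC and 1.59-fold in PBMC-hCG mice (adjusted p = 0.000619 and 0.000416). Control mice had 23.9, 7.97, 20.03, 22.4 and 21.2 TPM of Lef1, and IF mice had 30.7, 33.1, 16.5, 32.3 and 37.01 TPM. Lef1 stood at 29.5, 28.5, 35.1, 29.6 and 34.5 TPM in PBMC mice and at 31.5, 27.03, 29.5, 21.5 and 26.8 TPM in PBMC-hCG mice. Control mouse 2 was the lowest and IF mouse 3 was between it and the other control mice. Lef1 was called in PBMC against control mice alone, 1.75-fold higher (log2 fold change 0.81, SE 0.25, adjusted p = 0.0269), and not without PBMC mouse 3 or 5 (adjusted p up to 0.0594). The IF difference missed the threshold (log2 fold change 0.69, SE 0.25, adjusted p = 0.0519). That difference passed with library weights, among genes with a mean of at least 1 TPM, and without control mouse 1 or 4 or IF mouse 3 (adjusted p = 0.00453 to 0.0497). The PBMC-hCG difference from control also missed it (log2 fold change 0.60, adjusted p = 0.0719) and passed with library weights (adjusted p = 0.0365).

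**Figure D4:**
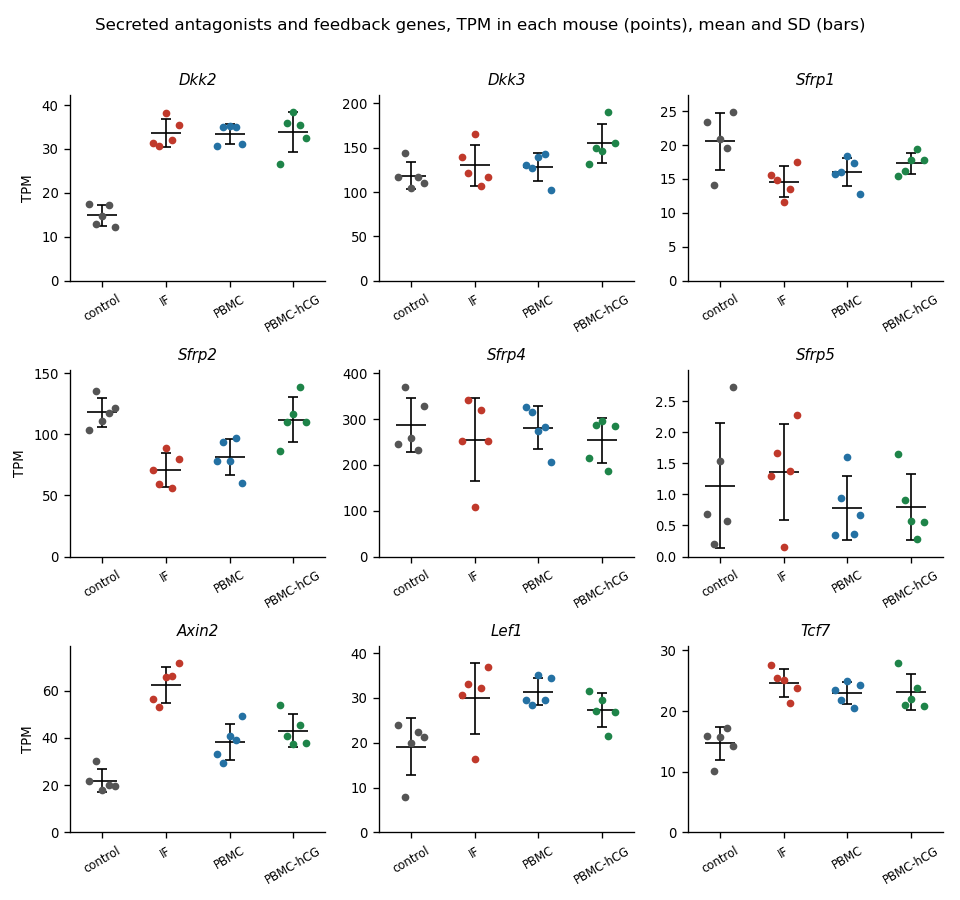
TPM of the 6 tested secreted antagonists and of Axin2, Lef1 and Tcf7 in each mouse (points), with the group mean and SD (bars) on linear axes from 0. Axin2 is at 53.0 to 71.6 TPM in IF mice and at 17.9 to 30.3 TPM in control mice, the mean of Sfrp2 is lowest in IF mice, and Dkk2 is above control in all mice with RU486.

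Set side by side, IF against control and PBMC-hCG against IF share the IF mice, so that a high IF value alone gives opposite signs. Of the 25 members called in either comparison, Axin2, Wnt4, Sfrp2 and Fzd6 were called in both. Axin2 and Wnt4 were higher in IF than in control mice and lower in PBMC-hCG than in IF mice, Sfrp2 was lower and then higher, and Fzd6 was higher in both. Dkk2, Tcf7, Wnt5a, Wnt7a, Fzd7 and Fzd10 were called against control and differed by -0.09 to 0.16 on the log2 scale between PBMC-hCG and IF mice, which missed the threshold. Of the others called only in the former comparison, Lgr4 differed there by 0.49, Wnt9a by 0.48, Sfrp1 by 0.25 and Wnt5b by 0.20. Lrp5 differed by -0.16, and all of these missed the threshold too (adjusted p = 0.0523 to 0.285).

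**Figure D5:**
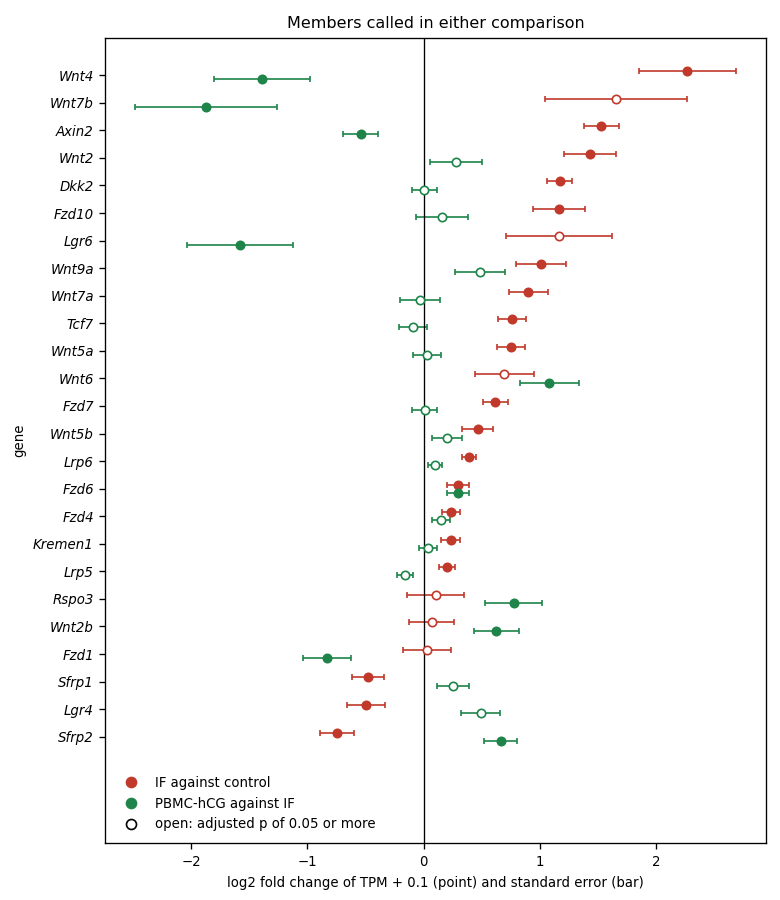
Log2 fold change (points) and SE (bars) of the 25 members called in IF against control mice (red) or PBMC-hCG against IF mice (green), ordered by the former, on the scale of log2(TPM + 0.1), with open points for adjusted p of 0.05 or more. Wnt4 and Axin2 are at 2.27 and 1.53 in the former comparison and at -1.39 and -0.54 in the latter, while Dkk2 is at 1.17 and 0.01.

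Of 104 other genes of the pathway, in 5 partly overlapping lists of modulators, alternative receptors, the destruction complex, nuclear factors and known responders, 98 were tested. In IF against control mice 21 were higher and 8 lower, beside 13.4% and 8.53% of all genes, with a median log2 fold change of 0.07 over the 98. In PBMC-hCG against IF mice 11 were higher and 7 lower (median 0.10), beside 7.61% and 5.99% of all genes, and in PBMC against IF and PBMC-hCG against PBMC mice none was called. Against control, 23 were higher and 5 lower in PBMC mice, beside 12.8% and 6.7% of all genes, and 33 and 6 in PBMC-hCG mice, beside 20.2% and 11.6%. The 10 with the smallest adjusted p-values between IF and control mice were Myc, Prickle2, Csnk1d, Ror2, Sox9, Tnks2, Tpbg, Musk, Csnk1e and Ephb3. Ror2, a receptor of Wnt5a outside the beta-catenin branch, was at 19.7 ± 1.94 (SD, n = 5) TPM in control and 78.0 ± 25.5 in IF mice (log2 fold change 1.92, SE 0.32, adjusted p = 0.000254), and at 33.0 ± 21.1 in PBMC-hCG mice, lower than in IF mice (log2 fold change -1.35, SE 0.32, adjusted p = 0.0287). Prickle2, of the planar cell polarity branch, was at 13.4 ± 2.05 TPM in control mice, at 30.5 ± 3.15 TPM in IF mice and at 22.4 ± 3.43 TPM in the PBMC-hCG group, with a rise of 1.19 in IF mice (adjusted p = 7.51e-06) and a fall of 0.45 in PBMC-hCG mice (adjusted p = 0.0433), both on the log2 scale. The falls of Ror2 and Prickle2 belong to the comparison that lay at the edge of adjustment. Between 0 and 34 of all genes were called there without IF mouse 2, 4 or 5 or PBMC-hCG mouse 2, 3, 4 or 5. Myc, which beta-catenin and also estrogen switch on, was lower in IF mice, at 54.8 ± 3.88 against 112.7 ± 12.02 TPM in control mice (log2 fold change -1.04, SE 0.09, adjusted p = 5.14e-07). Sox9, a responder in other epithelia, rose from 17.1 ± 5.97 to 32.6 ± 3.42 TPM (log2 fold change 0.98, SE 0.17, adjusted p = 0.000364). Among the 23 tested responders to beta-catenin as a list, 3 were higher and 2 lower in IF than in control mice, near the 13.4% and 8.53% of all genes. Musk, at a mean of 0.104 TPM in IF mice, was lower, and Csnk1d, Csnk1e, Tnks2, Tpbg and Ephb3 rose by 0.25 to 0.65 on the log2 scale.

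Markers of cell types moved with some of these results, and their part in them was not tested. The counts stand beside 13.4% of all genes higher and 8.53% lower in IF against control mice, and 7.61% and 5.99% in PBMC-hCG against IF mice. Of 10 endothelial markers, 9 were higher in IF than in control mice, and their sum was 635.7 to 812 TPM in control, 911 to 1024 in IF, 905.6 to 1077 in PBMC and 1024 to 1154 in PBMC-hCG mice. Of 15 epithelial markers, 7 were higher and 2 lower in IF mice, of 12 stromal markers 3 and 2, of 8 gland markers 1 and 1, and of 10 myometrial markers 0 and 2. Of 12 tested leukocyte markers, 4 were higher and none lower. Between PBMC-hCG and IF mice, the calls were 1 higher of 15 epithelial, 3 higher of 12 stromal, 1 higher of 10 endothelial, 1 higher of 6 ovary and oviduct and 1 lower of 8 gland markers, and none of the myometrial or leukocyte markers. The myometrial sum was 6284 to 11590 TPM in control, 6331 to 7804 in IF, 6141 to 7555 in PBMC and 5104 to 6431 in PBMC-hCG mice, and 6 of 10 were lower in PBMC-hCG than in control mice, beside 11.6% of all genes. Of the ovary and oviduct markers, Cyp19a1, Fshr, Hsd3b1 and Zp3 were listed at 0 in all libraries, and 1 of 6 tested was lower in IF mice. Of the embryo markers, 2 were tested and none was called.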

How the data were processed

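RNA was measured in uteri of 20 mice, 5 in each group, and the groups were taken from the labels. The authors prepared stranded libraries from polyadenylated RNA, trimmed reads with Trimmomatic, aligned them to mm10 with HISAT2, assembled transcripts with StringTie and deposited TPM per gene. Versions were not given in the sources used here, and read depth is unknown, so the count test of the study could not be run on these values.

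From the deposited TPM, log2(TPM + 0.1) of the 18706 genes above 0 in each library was fitted with limma 3.58.1 in R 4.3.3, with 4 group means, a variance trend and Benjamini-Hochberg adjustment in each of 6 comparisons. Fold changes are on this scale, which understates those of low genes. A gene was called at an adjusted p under 0.05. Adjusted p-values in the text come from limma. The procedure was tested on simulated data. Members called in any comparison are named with the value of each mouse, uncalled members with a mean of at least 20 TPM with their mean and range, and the 10 other pathway genes of smallest adjusted p between IF and control mice with group means or fold changes. The members and gene lists were chosen with earlier results of these data known. Alternatives were other pseudocounts, filters, scalings and models, the criterion of the study, and leaving out each mouse.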

Additional observations from a re-analysis of the deposited data

Results flagged for a closer look

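In 12 of 160 sets of 5 mice, 1 mouse of a tested member lay apart from the other 4, with a gap to the nearest of them of over 0.71 of the whole range, where chance gives about 5%. In control mouse 2, Fzd2 was at 43.03 TPM (others 56.4 to 61.5), Wnt5a at 39.6 TPM (others 60.6 to 67.1) and Lef1 at 7.974 TPM (others 20.03 to 23.9), all lower than the rest. In the same mouse, Rnf43 was at 7.917 TPM (others 4.66 to 5.13) and Wnt5b at 11.25 TPM (others 6.35 to 7.65), both higher. In control mouse 5, Fzd1 was at 106.2 TPM, above 59.8 to 71.1 TPM in the others.

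In PBMC-hCG mouse 1, Wnt4 was at 23.28 TPM (others 6.18 to 7.80), Fzd1 at 55.36 TPM (others 36.9 to 40.5), Lgr6 at 5.477 TPM (others 0.965 to 2.02) and Fzd3 at 3.767 TPM (others 3.09 to 3.27), all higher than the rest. In PBMC-hCG mouse 3, Fzd5 was at 10.67 TPM (others 7.61 to 8.35). In PBMC-hCG mouse 5, Wnt7a was at 13.16 TPM (others 15.9 to 16.7), the lowest of its group.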

How the results depend on the processing

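Counts of members called were 19 for IF against control, 0 for PBMC against IF, 10 for PBMC-hCG against IF, 0 for PBMC-hCG against PBMC, 18 for PBMC against control and 21 for PBMC-hCG against control, and no call changed sign under any alternative run. In that order, the criterion of a fold change of at least 2 with a raw p under 0.05 gave 8, 1, 4, 1, 7 and 5. Fitting only both groups compared gave 12 for IF against control. Library weights gave 1 for PBMC against IF, 21 for PBMC-hCG against IF and 3 for PBMC-hCG against PBMC, and no filter on low values, with 30695 genes tested, gave 3 for PBMC-hCG against IF. Leaving out 1 mouse gave 15 to 19, 0, 0 to 16, 0, 17 to 21 and 19 to 22, and 46 to 66 for the other pathway genes, of which 59 were called in any comparison. The cause of these changes was not tested. Not every pair of same-numbered mice deviated together: 8 of 30 pairs correlated over 0.1, and 2 of 20 mice best with their own number. Mice numbered 5 had a mean r of 0.149, with 3 of 6 pairs over 0.1 and a highest r of 0.457, against means of -0.064 to 0.003 for the other numbers. The numbers were not taken as pairs, and the replicate block gave 17, 0, 12, 0, 18 and 21 members. It lost Fzd4, Lrp5 and Kremen1 in IF against control and Rspo1 in PBMC against control mice. All leave-one-out fits kept 13 of 19, 0 of 10, 16 of 18 and 19 of 21 calls of the 4 comparisons with any. Read depth is unknown, so the counting error of members under 1 TPM cannot be given.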
